A study of Homo sapiens with 6 samples.

Results

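The genes described here encode the initiation and elongation factors of cytosolic protein synthesis, with the kinases, binding proteins and methyltransferases that carry their names. Members were protein-coding genes whose symbol begins with EIF1 to EIF6 or with EEF1 or EEF2 and that had a probe set naming that gene alone, with the brightest probe set used for each. This gave 60 of 18404 genes tested. A pseudogene (EEF1DP3) and a long noncoding RNA (EIF3J-DT) whose symbols also match were left out. Another 9 protein-coding genes of the families had no probe set of their own and are not analysed here: EIF4A1, EIF5A, EIF5AL1, EIF3C, EIF3CL and EIF4EBP3 appeared only on probe sets that name several genes, and EIF4G3, EEF1E1 and EEF1AKMT4 were not listed.

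Messenger RNA was measured on 6 one-colour arrays of HaCaT, an immortalised human keratinocyte line, collected 72 hours after lentiviral knockdown. The shTP63 group had 3 samples, whose virus expressed a short hairpin RNA aimed at TP63, and the shControl group 3, whose virus was the control vector. p63, the product of TP63, is the transcription factor by which basal cells of stratified epithelia keep their identity. According to its title the series bears on p63, the chromatin protein ACTL6A and the Hippo-YAP pathway in squamous carcinoma. All samples are of 1 cell line. The labels do not say whether replicates came from separate cultures, so the p-values reflect sample-to-sample spread that may be purely technical. In these bulk samples, fewer cells of a type and less RNA per cell cannot be told apart. The level of TP63 was not analysed here, so every direction rests on the sample labels. Of 10 keratinocyte markers 8 were measured, all with mean log2 levels of 10.70 to 13.82, and 5 of them fell and 2 rose. Of 16 fibroblast, immune and endothelial markers 15 were measured, with mean levels of 4.22 to 9.57, and 8 of them were below background in shControl and shTP63 alike. Background was taken as 6.76, the level that 95% of 340 olfactory receptor genes did not exceed. Among these 15 markers DCN and VWF fell, both at levels below background in shControl and shTP63, and COL1A1 rose. The part of these markers in the results was not tested. The median log2 level of those 15 markers was 6.59 to 6.73 over the shControl arrays and 6.60 to 6.86 over the shTP63 arrays. CDH5, an endothelial cadherin gene, was the highest of them (9.50 in shControl, 9.57 in shTP63). Pearson's r between arrays, computed across genes that are no independent replicates, was 0.998 to 0.999 within groups and 0.990 to 0.991 between them.

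Translation begins when eIF2 brings the initiator tRNA to the small ribosomal subunit, eIF3 holds that subunit to the messenger, and the eIF4F complex binds its cap and unwinds the leader. eIF1, eIF1A and eIF5 govern the choice of the start codon, and eIF5B joins the large subunit. eEF1A then delivers each aminoacyl-tRNA and eEF2 moves the ribosome along. In epithelial cells the rate is set largely by the kinases of eIF2 and by proteins that sequester the cap-binding factor eIF4E. The messengers of many translation factors and ribosomal proteins begin with a terminal oligopyrimidine (TOP) tract, a C at the cap followed by a run of C and T, which places them under the control of mTORC1 and LARP1.

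Stretches of 30 bases across the start site are shown for members that differ in that tract and in their response. They run from 10 bases before the annotated start to 20 bases from it on (RefSeq, GRCh38.p14). Capitals mark a C followed by at least 5 pyrimidines whose first base lay within 10 bases of the start. Where a window held several such runs, only the longest is marked. The first 6 belong to members whose level was lower in shTP63, in the order EIF3K at chr19:38619178-38619207 (plus strand), EIF2A at chr3:150546777-150546806 (plus), EEF1B2 at chr2:206159885-206159914 (plus), EIF3F at chr11:7987327-7987356 (plus), EEF2 at chr19:3985444-3985473 (minus) and EEF1A1 at chr6:73521013-73521042 (minus). The last 2, without such a run in the window, are EIF4EBP2 at chr10:70404135-70404164 (plus), which had the largest fall, and EIF2AK3 at chr2:88627445-88627474 (minus), the member that rose.
EIF3K: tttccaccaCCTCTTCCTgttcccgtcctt
EIF2A: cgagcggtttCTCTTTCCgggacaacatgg
EEF1B2: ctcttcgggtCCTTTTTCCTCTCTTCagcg
EIF3F: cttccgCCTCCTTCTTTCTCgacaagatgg
EEF2: cgtcagcgttCTCTTCCgccgtcgtcgccg
EEF1A1: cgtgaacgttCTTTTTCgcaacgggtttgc
EIF4EBP2: gccttcgcccgcttccggtcgtcgtcgtcg
EIF2AK3: tgtccgagataggctgtcactcaggtggca
In EEF2, EEF1A1, EIF2A and EEF1B2 the run began at the annotated start base itself. EEF1B2 has a second listed start, upstream, without the run. The members with a run whose differences did not pass the threshold used below, EIF2B5 (0.04), EIF5 (-0.06) and EIF4E2 (-0.12), are not shown.

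Levels in shTP63 were set against those in shControl for each gene. Of the 60 translation factor genes 43 fell and 1 rose at an adjusted p of 0.05 (limma, Benjamini-Hochberg over all genes), and 16 did not pass. Over all genes tested 25.1% fell and 16.4% rose in this fit, 41.5% in all. The 3 shTP63 values all lay below the 3 shControl values in 46 of the 60 genes, against 30.4% of all genes, and all above in 1, against 20.9% (51.4% of all genes were separate in either direction). The changes were small: the median difference of the members was -0.21 on the log2 scale against -0.01 for all genes, the largest fold was 1.65, and 5 members moved by more than 0.5. The 16 members that did not pass had differences of -0.20 to 0.05, of which 12 were negative.

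**Figure D1:**
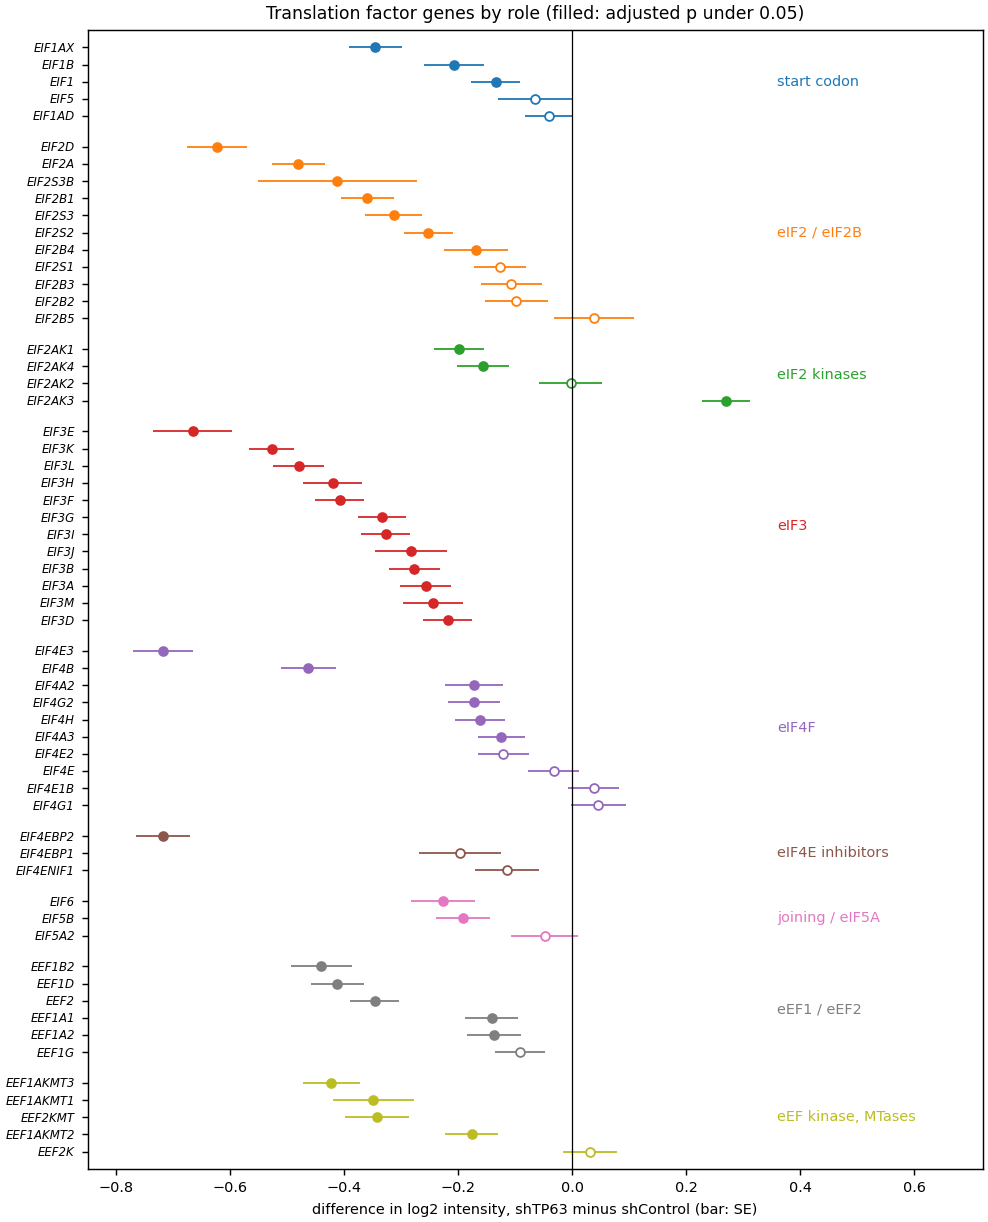
Difference in log2 intensity, shTP63 minus shControl (x axis), for 59 of the 60 translation factor genes, grouped by role. Points are differences and bars their standard errors, filled where the adjusted p was under 0.05, and all 12 eIF3 subunits lie to the left of 0 while EIF2AK3 is the filled point to the right.

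Most translation factor genes had bright probe sets, and bright genes as a class were lower in shTP63. Genes were split by mean level into 5 bins of equal size. The brightest held 37 of the 60 members, and there 31 of 37 members fell against 44.0% of all genes in that bin. The median difference there was -0.25 for the members and -0.10 for all genes. The members were also the brighter within that bin (median level 11.59 against 10.79), so level was matched only roughly. In the next bin 5 of 11 members fell, against 43.0% of all genes. In the middle bin 5 of 9 members fell, against 25.4% of all genes. The 2 dimmest bins, where 8.67% and 4.43% of all genes fell, held EIF2S3B, EIF1AY and EIF4E, each under the background level in both groups.

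**Figure D2:**
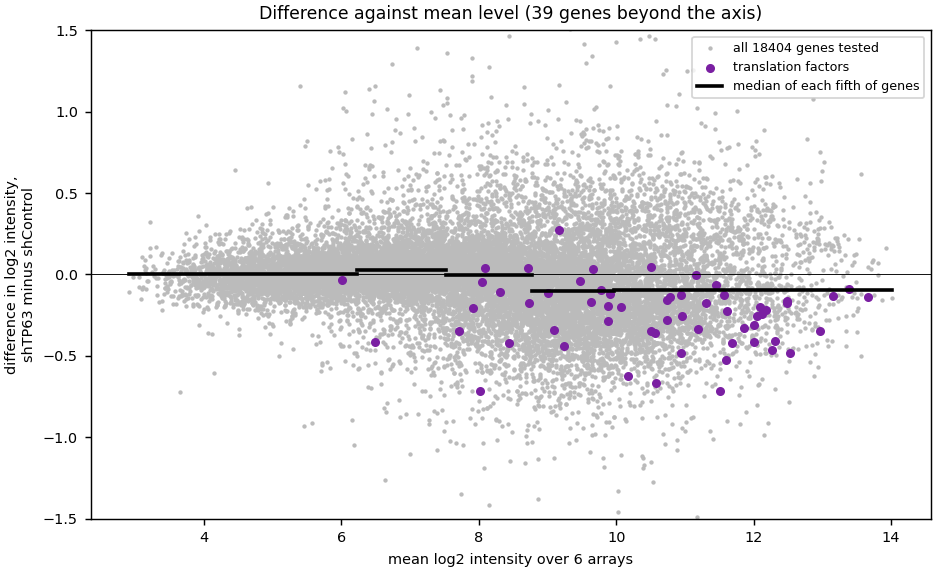
Difference in log2 intensity, shTP63 minus shControl (y axis), against the mean log2 intensity over 6 arrays (x axis) for all 18404 genes (grey) and 59 translation factor genes (purple), with 39 genes beyond the y axis. Black lines give the median of all genes in each of 5 equal bins, and in the brightest bin most purple points lie under the line at -0.10.

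The size of the shift depended on how the arrays were scaled, while the members' median was negative under all 5 scalings. Centring the arrays on their medians took the median of all genes to -0.12, and then 52 members fell and 1 rose (43.1% and 9.68% of all genes), with a median difference of -0.32 for the members. After a renewed quantile normalization 40 fell and 1 rose (31.4% and 14.1%). Restricting quantile normalization to probe sets that name 1 gene gave 36 falls and 2 rises (21.3% and 19% of all genes). After cyclic loess 32 fell and 1 rose (23.8% and 16.8%), with a median of -0.15 against -0.03 for all genes. With the dimmest 40% of probe sets left out 44 of 57 members fell and 1 rose (36.5% and 22.3% of all genes), with a trended robust prior 47 and 1 (26.7% and 16.9%), and with array weights 45 and 1 (26% and 17.1%). With single arrays left out the falls numbered 33 to 42. They were fewest without shControl replicate 2, at 33, where 21.9% of all genes fell and 13.6% rose. Without shControl replicate 3 there were 36 falls, with 21.3% of all genes lower and 13.9% higher, and without shTP63 replicate 2 there were 35, with 22.5% lower and 13.9% higher. Without shTP63 replicate 3 there were 38, with 23.6% of all genes lower. In all, 29 of the 43 falls held under each of the 15 alternatives in which they could be tested at the same threshold.

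**Figure D3:**
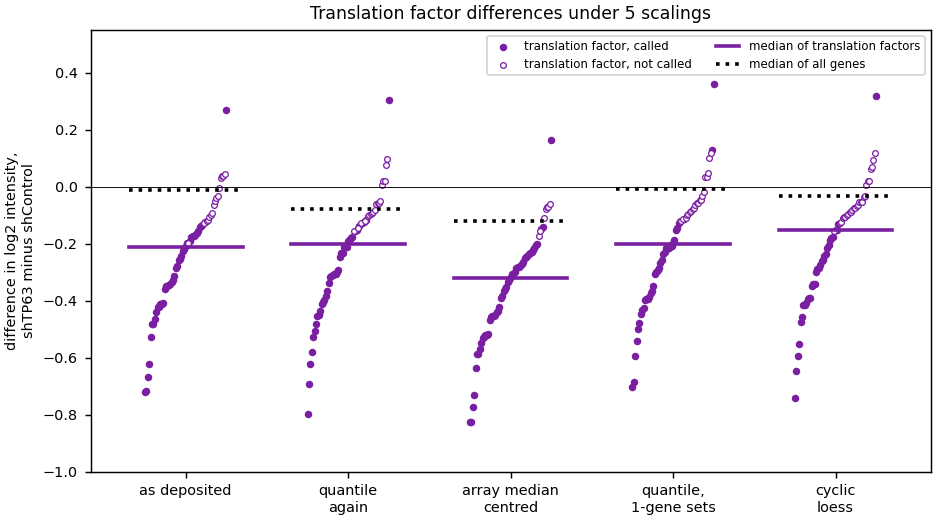
Differences in log2 intensity (y axis) of 59 translation factor genes under 5 scalings of the arrays (x axis), ordered by size within each, filled where called. Purple lines are the median of the translation factors, from -0.32 to -0.15, and dotted lines that of all genes, from -0.12 to -0.01.

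All 12 measured subunits of eIF3, the scaffold that joins the small ribosomal subunit to the messenger and to eIF4G, fell, with a median difference of -0.33 and a range of -0.67 to -0.22. Each of these 12 calls held under all 15 alternatives. Over all genes 25.1% fell, and 44.0% did in the brightest bin, where most of the 12 lay. EIF3E (probe set 8152323) read 10.88, 11.00 and 10.84 on the shControl arrays and 10.37, 10.23 and 10.12 on the shTP63 arrays, and thus fell by 0.67 log2 units (SE 0.070; limma, adjusted p = 9.09e-05). EIF3E is a subunit of the outer part of the complex, also known as INT6. The groups were well apart, and the 3 shTP63 values were more spread than those of most subunits. EIF3K (8028514) read 11.88, 11.86 and 11.83 in shControl and 11.33, 11.33 and 11.32 in shTP63 and fell by 0.53 (SE 0.040). EIF3L (8072946), the partner with which EIF3K forms the tip of the complex, read 12.72, 12.80 and 12.79 in shControl and 12.32, 12.29 and 12.26 in shTP63 and fell by 0.48 (SE 0.045). In both genes the gap between the groups was several times the spread within either.

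EIF3H, EIF3F and EIF3M belong to the ring of subunits that carry PCI or MPN domains. EIF3H fell by 0.42 (SE 0.051), EIF3F by 0.41 (SE 0.042) and EIF3M by 0.24 (SE 0.053). The other probe set of EIF3F, much dimmer and with the same RefSeq accession, differed by -0.16 (SE 0.141) and did not pass (adjusted p = 0.409, limma over probe sets). Among the subunits that bind RNA or the ribosome near the entry channel, EIF3G fell by 0.33 (SE 0.042), EIF3I by 0.33 (SE 0.043) and EIF3B, the scaffold for both, by 0.28 (SE 0.044). EIF3A, the largest subunit, fell by 0.26 (SE 0.044), the loosely bound EIF3J by 0.28 (SE 0.063) and the cap-contacting EIF3D by 0.22 (SE 0.043). The values of the 2 groups did not overlap in any of the 12.

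**Figure D4:**
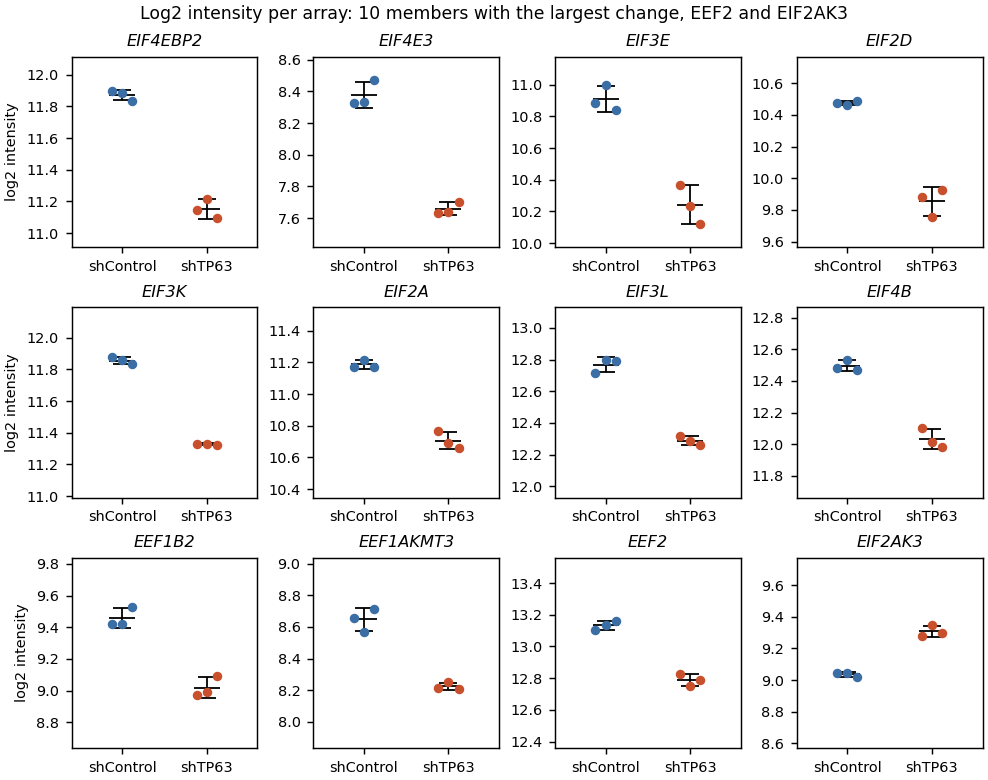
Log2 intensity on each array (points; y axis, 1.2 log2 units in each panel) with the group mean and SD (bars, n = 3) for the 10 translation factor genes with the largest change, EEF2 and EIF2AK3. In each panel the shControl and shTP63 points are separate, with shTP63 lower in all but EIF2AK3.

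The eIF4E-binding proteins block assembly of eIF4F until mTORC1 phosphorylates them. EIF4EBP2 (probe set 7928119), which encodes one of them, had the largest difference of all members. It read 11.89, 11.88 and 11.83 in shControl and 11.14, 11.22 and 11.10 in shTP63 and fell by 0.72 (SE 0.048, limma adjusted p = 9.15e-06), or 1.65-fold. No shTP63 value came within 0.5 of a shControl value. EIF4EBP1 (8145889) read 10.10, 10.16 and 10.26 against 10.07, 9.82 and 10.03. Its groups were separate by a narrow margin, and the difference of -0.20 (SE 0.072) missed the threshold (limma adjusted p = 0.0542) but passed in 6 of 15 alternatives, with adjusted p of 0.00691 to 0.194 over them. EIF4ENIF1, the transporter that carries eIF4E into the nucleus, differed by -0.11 (SE 0.057, limma adjusted p = 0.143).

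Among the cap-binding complex and its helpers 6 of 10 measured genes fell, against 25.1% of all genes and 44.0% of those in the brightest bin. After cyclic loess 2 of the 10 fell, against 23.8% of all genes. EIF4E3 (8088803), a cap-binding relative of eIF4E, read 8.32, 8.33 and 8.47 in shControl and 7.63, 7.64 and 7.70 in shTP63 and fell by 0.72 (SE 0.053, limma adjusted p = 1.44e-05). EIF4B (7955646), which stimulates the helicase eIF4A, read 12.48, 12.53 and 12.47 against 12.10, 12.01 and 11.98 and fell by 0.46 (SE 0.048). Its other probe sets fell by 0.65 and 0.49, so all 3 were lower. The cap-binding factor EIF4E itself lay under the background level, at 6.03 ± 0.049 in shControl and 5.99 ± 0.013 in shTP63 (SD, n = 3), and did not pass (difference -0.03, limma adjusted p = 0.605). At this signal the lack of a call says little about EIF4E. It did pass as lower under 2 scalings, array-median centring (-0.14) and renewed quantile normalization (-0.14). For the scaffold gene EIF4G1 the groups overlapped, and a difference of 0.05 (SE 0.048) was not called. Quantile normalization restricted to probe sets naming 1 gene made it a rise (0.13, limma adjusted p = 0.0471). Under the other scalings EIF4G1 was not called, at 0.10 and 0.12 after renewed quantile normalization and cyclic loess and -0.06 after centring. Its relative EIF4G2, also known as DAP5, fell by 0.17 (SE 0.046), a call lost without shControl replicate 2, after cyclic loess and after renewed quantile normalization.

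Probe sets disagreed in direction for 3 of these families' genes, and in call alone for EIF3F, as given above. EIF4H, a helper of eIF4A, read 12.58, 12.54 and 12.56 against 12.35, 12.44 and 12.41 at its brighter probe set (8138773) and fell by 0.16 (SE 0.043). At the other (8133434), which lists the same accessions, it read 10.95, 10.75 and 10.97 against 11.58, 11.73 and 11.63, a rise of 0.76 (SE 0.069, adjusted p = 5.99e-05, limma over probe sets), so that the mean of both rose by 0.30. The direction of EIF4H therefore rests on the choice of probe set, and the fall at the brighter one was not called under 3 of the 4 other scalings (limma adjusted p of 0.144, 0.0837 and 0.150). The helicase EIF4A2 fell by 0.17 at its brighter probe set (SE 0.050) and rose by 0.25 at a dimmer one that lists a single transcript (SE 0.075, adjusted p = 0.0289, limma over probe sets). Its call was lost with probe sets averaged (difference 0.04), after cyclic loess and without shControl replicate 2 or shTP63 replicate 3. EEF1D, an exchange factor subunit for eEF1A, fell by 0.41 at its brighter probe set (SE 0.047) and rose by 0.32 at a much dimmer one that also lists a single transcript (SE 0.050), and with both averaged it differed by -0.05 and did not pass (limma adjusted p = 0.414). EIF4A3, the helicase of the exon junction complex, fell by 0.12 (SE 0.041), a call lost in 8 of 15 alternatives, each of the 6 single-array omissions among them.

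The genes of eIF2, its exchange factor eIF2B and other initiator-tRNA carriers were taken as 1 class, in which 7 of 11 fell. That compares with 25.1% of all genes and 44.0% of those in the brightest bin. EIF2D (7923889), which can place the initiator tRNA without eIF2 and also acts in ribosome recycling, read 10.48, 10.46 and 10.49 against 9.88, 9.75 and 9.92 and fell by 0.62 (SE 0.053, limma adjusted p = 2.88e-05). EIF2A (8083333), another factor that can deliver the initiator tRNA, read 11.17, 11.22 and 11.17 against 10.77, 10.69 and 10.66 and fell by 0.48 (SE 0.046). Both changes exceeded those of the eIF2 subunits. Of the 3 subunits of eIF2 proper, EIF2S3 fell by 0.31 (SE 0.051) and EIF2S2 by 0.25 (SE 0.044), whereas EIF2S1, the subunit that is phosphorylated, had separate groups but missed the threshold at -0.13 (SE 0.046, limma adjusted p = 0.0527). EIF2S3B, a retrogene close in sequence to EIF2S3, passed with overlapping groups (fell by 0.41, SE 0.140), a call lost without any 1 of 4 arrays. In eIF2B, the exchange factor that recharges eIF2 with GTP, EIF2B1 fell by 0.36 (SE 0.047) and EIF2B4 by 0.17 (SE 0.056), the latter lost in 8 of 15 alternatives, 5 of which left out 1 array (any but shTP63 replicate 3). EIF2B2, EIF2B3 and EIF2B5 did not pass.

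The eIF2 kinases phosphorylate eIF2 under stress and so slow initiation. They included the only member that rose. EIF2AK3 (8053668), which encodes PERK, the kinase of endoplasmic reticulum stress, read 9.05, 9.05 and 9.02 in shControl and 9.28, 9.35 and 9.30 in shTP63, a rise of 0.27 (SE 0.042, limma adjusted p = 0.000827), or 1.21-fold. All 3 shTP63 values were higher, and the call held in each of 15 alternatives, with differences of 0.16 to 0.36. EIF2AK1 (8138045), the haem-regulated kinase HRI, read 12.18, 12.22 and 12.17 against 12.04, 11.98 and 11.96 and fell by 0.20 (SE 0.044). EIF2AK4 (7982620), the amino acid sensor GCN2, read 10.78, 10.85 and 10.83 against 10.68, 10.61 and 10.70 and fell by 0.16 (SE 0.046). That call was lost in 6 of 15 alternatives, 3 of them the omission of shControl replicate 2, shControl replicate 3 or shTP63 replicate 2. EIF2AK2, the double-stranded RNA sensor PKR, stood at 11.17 ± 0.061 in shControl and 11.16 ± 0.077 in shTP63 (SD, n = 3), with overlapping groups and no call (limma adjusted p = 0.976).

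For start-codon selection 4 of 6 genes fell, against 25.1% of all genes and 44.0% of those in the brightest bin. EIF1AX, which encodes eIF1A, fell by 0.35 (SE 0.047) at its brighter probe set and by 0.50 at the other. EIF1AY, its near-identical counterpart on the Y chromosome, also passed as lower from a level under background, and cross-hybridisation between the pair was not tested. EIF1B fell by 0.21 (SE 0.052) and EIF1 by 0.13 (SE 0.043), the latter lost in 7 of 15 alternatives, 5 of which left out 1 array (any but shTP63 replicate 1). EIF5 and EIF1AD did not pass. Of the joining and anti-association factors EIF6, which keeps the large subunit free, fell by 0.23 (SE 0.056) and EIF5B by 0.19 (SE 0.048), and EIF5A2 did not pass. After cyclic loess neither EIF6 nor EIF5B passed, and EIF5B also did not when quantile normalization was restricted to probe sets naming 1 gene.

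Elongation factors followed with 5 of 6 genes lower, against 25.1% of all genes and 44.0% of those in the brightest bin. After cyclic loess 3 of the 6 were lower, against 23.8% of all genes. EEF1B2 (8047771), an exchange factor subunit that reloads eEF1A with GTP, read 9.42, 9.42 and 9.53 against 8.97, 8.99 and 9.09 and fell by 0.44 (SE 0.053, limma adjusted p = 0.000192). EEF2, the translocase, read 13.11, 13.13 and 13.16 against 12.82, 12.75 and 12.79 and fell by 0.35 (SE 0.043, limma adjusted p = 0.000230), and the call held in all 15 alternatives. EEF1A1, the carrier of aminoacyl-tRNA, fell by 0.14 (SE 0.046) and its other probe set by 0.18. EEF1A2, a close paralogue best known from muscle and neurons, fell by 0.14 (SE 0.048). The calls of EEF1A1 and EEF1A2 were weak, lost in 8 and 10 of 15 alternatives, and cross-hybridisation between the paralogues or their pseudogenes was not tested. EEF1A1 was lost without any 1 array other than shTP63 replicate 1, and EEF1A2 without any 1 of the 6. EEF1G, the third exchange factor subunit, missed the threshold at -0.09 (SE 0.044, limma adjusted p = 0.133).

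Genes for enzymes that modify the elongation factors were split between the methyltransferases and the kinase. EEF1AKMT3 (7956631), a lysine methyltransferase of eEF1A, read 8.66, 8.57 and 8.71 against 8.22, 8.25 and 8.21 and fell by 0.42 (SE 0.050, limma adjusted p = 0.000164). EEF1AKMT1 fell by 0.35 (SE 0.070) and EEF1AKMT2 by 0.18 (SE 0.047), the latter lost without shControl replicate 2 or shTP63 replicate 2 and under 1 scaling. EEF2KMT, the lysine methyltransferase of eEF2, fell by 0.34 (SE 0.056). EEF2K, the kinase that inactivates eEF2, stood at 9.65 ± 0.027 in shControl and 9.68 ± 0.063 in shTP63 (SD, n = 3) and did not pass (difference 0.03, limma adjusted p = 0.649).

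The start sites of the members were compared with their differences. Of the 60 genes 47 had a RefSeq window of 300 bases, 9 of them more than 1. A gene was counted as having a feature if any of its windows held it. EEF1B2, EIF6, EIF4G2, EIF4E2 and EIF5, counted as having the run, each also had a window without it. The TOP-like run defined above, searched on the strand of the gene, was present in 21 of 47 (44.7%), against 26.2% of 14230 tested genes with a window. Of the 21 members with the run 18 fell, with a median difference of -0.23, and of the 26 without it 13 fell, with a median of -0.13. The 13 members that had no window all fell except EIF4EBP1, and they enter neither count. Members with and without the run were not matched for mean level, so the contrast cannot be laid to the run. Over all genes the medians were -0.03 with the run and -0.02 without, and 29.7% and 26.3% fell. The sequence CACGTG, the E-box bound by MYC and related factors, which reads alike on both strands and whose first C alone can belong to such a run, was present in 12 of 47 members (25.5%) against 10.9% of all genes. Of those 12 members 6 fell, and of the 35 without it 25 fell, or 71.4%. Over all genes the order was the other way, with 31.9% lower among those with it and 26.6% among those without, and medians of -0.05 and -0.02. These are descriptions of letters in a window, and no test was made of them.

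Partner genes were listed too, some acting on the translation factors and others in related pathways or in mitochondrial translation. Each list held more falls than rises, as did all genes. The partner lists had median levels of 8.73 to 10.02, against 8.17 for all genes, so the share over all genes understates that of equally bright genes. In the brightest, next and middle bins 44.0%, 43.0% and 25.4% of all genes fell. Of 23 genes of mTORC1, S6 kinase and MNK signalling 15 fell and 0 rose (25.1% and 16.4% of all genes), with a median difference of -0.30. At an unadjusted p under 0.05 (limma), which 28.7% of all genes passed as lower and 19.7% as higher, 17 were lower and 1 higher, the S6 kinase gene RPS6KB1 (0.13, SE 0.048, limma adjusted p = 0.0650, chosen after its value was seen), and 1 gene rose in 7 of the 15 alternatives, among them the omission of shControl replicate 1. RRAGC, a GTPase that recruits mTORC1 to the lysosome when amino acids are present, read 10.59, 10.60 and 10.57 against 9.70, 9.72 and 9.63 and fell by 0.90 (SE 0.043, limma adjusted p = 1.75e-06). RRAGB, a partner of the same complex, fell by 0.77 (SE 0.054). SESN3, a sestrin that restrains mTORC1, fell by 0.86 (SE 0.045), so genes described as activating and as inhibiting the kinase were both among the falls. MTOR itself, outside the naming rule and chosen after its value was seen, was not called at -0.07 (SE 0.048, limma adjusted p = 0.302).

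Of 18 measured termination, recycling and poly(A)-binding partners 12 fell and 0 rose, against 25.1% and 16.4% of all genes, or 13 and 0 at an unadjusted p under 0.05 (limma; 28.7% and 19.7% of all genes). PDCD4, an inhibitor of eIF4A, fell by 0.53 (SE 0.049), the poly(A)-binding protein gene PABPC4 by 0.37 (SE 0.046) and DENR, a recycling factor related to EIF2D, by 0.35 (SE 0.047). The list of hypusine and diphthamide enzymes, which modify eIF5A and eEF2, also held the polyamine genes SMOX, ODC1, SRM, SMS and AMD1. Of its 13 measured genes 7 fell and 1 rose (25.1% and 16.4% of all genes). The falls included those of SRM (-0.35) and ODC1 (-0.16). The diphthamide genes DPH3 and DPH2 each fell by 0.66 (SE 0.047 and 0.066) and DHPS, which starts hypusine synthesis on eIF5A, by 0.46 (SE 0.045). The rise was that of SMOX, spermine oxidase, at 0.47 (SE 0.054), named after its value was seen. Of 10 measured mitochondrial translation factors 5 fell and 0 rose (25.1% and 16.4% of all genes), and 1 rose under 1 scaling. The counts were the same at an unadjusted p under 0.05 (limma, 28.7% and 19.7% of all genes). In the brightest and next bins, which held most of these 10 genes, 44.0% and 43.0% of all genes fell, near the share seen here. MTIF3, MTFMT and MRRF were lower by differences of -0.39, -0.42 and -0.36.

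Of 15 genes of the eIF2 phosphatase and the integrated stress response 9 fell and 2 rose, against 25.1% and 16.4% of all genes, so that the share that rose was near that of all genes. PPP1R15B, the constitutive targeting subunit that directs phosphatase to eIF2, read 10.78, 10.79 and 10.77 against 11.17, 11.26 and 11.24 and rose by 0.44 (SE 0.044, limma adjusted p = 6.59e-05). The other rise, named after its value was seen, was that of DNAJC3, which encodes an inhibitor of PKR and PERK, by 0.42 (SE 0.051). IMPACT, an inhibitor of GCN2, fell by 0.45 (SE 0.047). TRIB3, a gene induced by the transcription factors ATF4 and CHOP, fell by 0.44 (SE 0.044). ATF4 and DDIT3, which encodes CHOP, were chosen after their values were seen and fell by 0.36 (SE 0.058) and 0.56 (SE 0.059). Of the other stress-response targets on the list, also named after their values were seen, ATF3 fell by 0.19 (SE 0.046). ASNS (-0.10), PPP1R15A (-0.08) and CHAC1 (0.04) were not called (limma adjusted p of 0.177, 0.284 and 0.509).

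**Figure D5:**
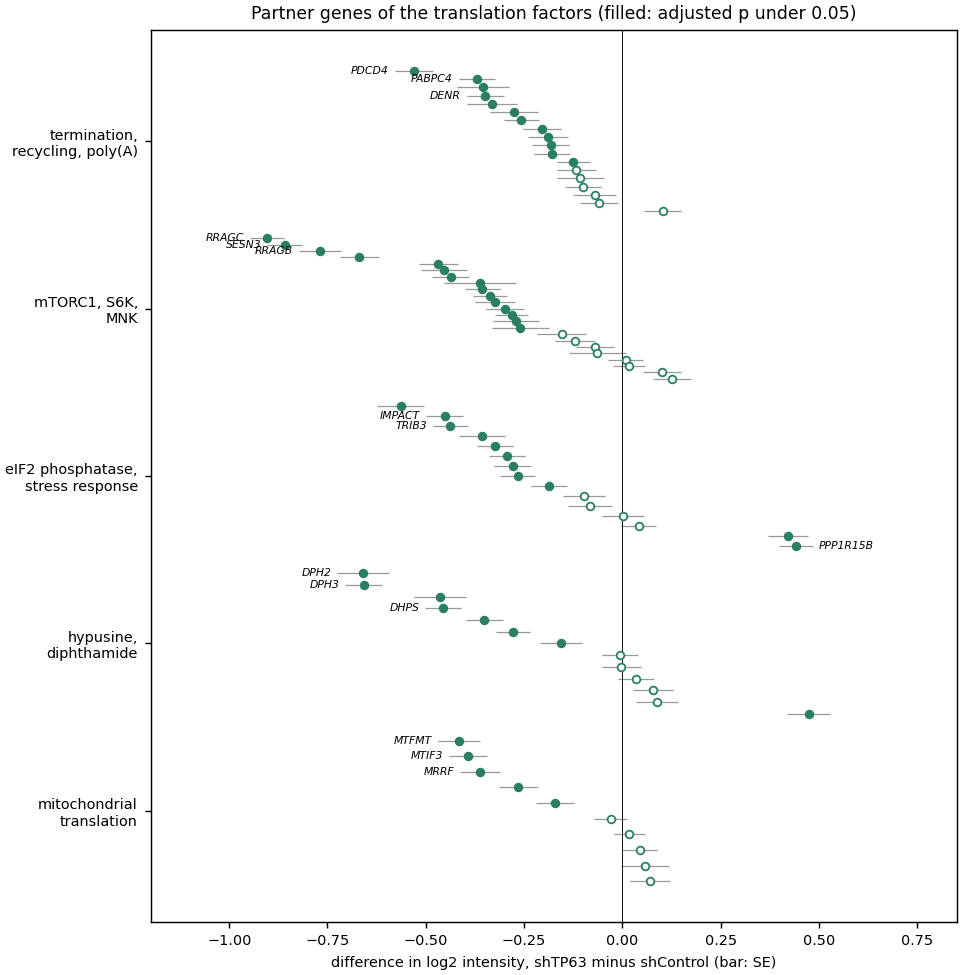
Difference in log2 intensity, shTP63 minus shControl (x axis), of the measured genes in 5 lists of partner genes, with standard errors as bars and filled points where the adjusted p was under 0.05. Up to 3 genes a list are named, and the filled points to the right of 0 are those of PPP1R15B and DNAJC3 in the stress response list and of SMOX in the hypusine and diphthamide list.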

How the data were processed

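The deposited values are intensities on a linear scale, which the authors computed by RMA, a multi-array summary, under R 2.15.1, per the submitters' processing notes; the array's genome build is not given in the sources used here. RMA usually ends with arrays of 1 common distribution, but the deposited log2 medians over all probe sets were 7.44 to 7.47 in shControl and 7.54 to 7.57 in shTP63, hence the scaling alternatives. Of 32321 probe sets, 19158 named 1 gene in the platform annotation supplied for this work, 1388 named several and 11775 were not listed; only the first entered tests. Members matched RefSeq (GRCh38.p14) by Entrez identifier in 60 of 60 cases.

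Here log2 was taken, the probe set with the highest mean kept per gene, and a limma model fitted (version 3.58.1, R 4.3.3; lmFit, then eBayes; tests two-sided). P-values were adjusted by Benjamini-Hochberg across the 18404 genes and called under 0.05. The number of arrays, 3 per group, limits the precision: the median SE of a gene's difference was 0.053. An exact permutation test of 3 against 3 cannot go below 0.1 and was not used. Alternatives were a replicate block, 4 scalings, a filter on dim probe sets, averaged probe sets, a trended robust prior, array weights, a threshold of 0.01 and each array left out. Promoter windows came from RefSeq.

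Named genes were the members past the threshold, 10 fixed regulators, members whose probe sets disagree, and up to 3 called genes per partner list; other members were named by role after their values were seen. The members and lists were chosen with earlier results of these data known.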

Additional observations from a re-analysis of the deposited data

How the results depend on the processing

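The count of falls among the 60 genes ranged from 32 to 52 over the alternatives at the same threshold and was 29 at 0.01, where 18.8% of all genes fell and 11.4% rose. The single rise became 2 when quantile normalization used only probe sets naming 1 gene and with probe sets averaged. The median difference moved from -0.21 to -0.32 with arrays centred on their median and to -0.15 after cyclic loess. Leaving out single arrays gave 33 to 42 falls, 1 rise each time and medians of -0.23 to -0.20. Of 717 values of the 48 named members under alternatives, 632 kept direction and call, 68 lost the call, 8 gained one and 9 changed sign. The sign changes were those of EEF2K (-0.0762 after centring), EIF4A2 (0.0365) and EIF4H (0.30) with probe sets averaged, and EIF2AK2, which was 0.0213 after renewed quantile normalization, 0.0355 with that restricted to probe sets naming 1 gene, 0.0701 after cyclic loess and 0.003 with array weights. With single arrays left out EIF2AK2 ranged from -0.0309 to 0.0409, above 0 without shControl replicate 2 or shTP63 replicate 3. For EIF4A2 and EIF4H averaging brought in a probe set that rose; for the others the cause was not tested.

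With the replicate number as a block 38 members fell and 1 rose, 5 calls fewer, against 23.5% and 15.4% of all genes. The numbers share no stated source, and same-numbered samples did not deviate together in every pair (correlations of -0.15, -0.04 and 0.13 across genes), so the block served only as an alternative. Signal over background limits EIF4E, EIF2S3B and EIF1AY.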
